A study of Mus musculus with 8 samples.

Results

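The nucleolar rRNA processing factors examined here were the genes of the count table whose symbol began with Nop, Nol, Utp or Rrp followed by a digit (or Nolc), together with 12 genes named singly: *Fbl*, *Dkc1*, *Gar1*, *Nhp2*, *Npm1*, *Ncl*, *Imp3*, *Imp4*, *Bop1*, *Pes1*, *Wdr12* and *Rrs1*. They numbered 46 of the 12551 genes measured, 34 by symbol start and 12 by their own symbol, by a rule on symbols alone that was set with earlier results of these data known. The filter on low counts removed no gene of the table, so all 46 were tested. They lie on 18 chromosomes. By known role, 3 are abundant nucleolar phosphoproteins, 3 belong to the box C/D and 4 to the box H/ACA small nucleolar ribonucleoproteins (snoRNPs), 21 to the small subunit processome and 13 to large subunit maturation. The other 2, *Nol3* and *Nol4l*, share the symbol start but have no established role in rRNA processing. *Nol3* encodes ARC, an inhibitor of apoptosis abundant in striated muscle.

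Ribosomes are assembled in the nucleolus, where RNA polymerase I transcribes a long precursor rRNA. SnoRNPs guide its chemical modification, box C/D particles with the methyltransferase fibrillarin (*Fbl*) and box H/ACA particles with the pseudouridine synthase dyskerin (*Dkc1*), while the small subunit processome and the large subunit assembly factors fold and cleave it into the mature rRNAs. In skeletal muscle, ribosome content sets a limit on protein synthesis capacity, and the genes of this machinery are known targets of MYC and of growth signaling.

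Tibialis anterior (TA) muscle was taken from male mice of 7 weeks, 4 wild-type (WT) and 4 homozygous for a Klotho null allele (KL-/-). The mice were bred from heterozygous parents on a mixed background, and the null allele was carried in all tissues. Klotho is a transmembrane and circulating protein whose absence gives a premature aging-like syndrome with muscle wasting, and the comparison asked which muscle transcripts differ in its absence. Reads on genes summed to 20860262 to 26501093 per WT and 22061526 to 29273758 per KL-/- library, so that 3 counts corresponded to 0.102 to 0.144 CPM (counts relative to the scaled library size).

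The libraries carried the markers of their tissue and of several other cell types. Summed CPM of 7 muscle fiber markers was 130269 to 150462 in WT and 156931 to 206055 in KL-/- muscles, but 0 of the 7 were called by the test used below. All 7 leukocyte and macrophage markers (47.0 to 90.9 against 24.1 to 46.4 CPM in sum), all 6 fibroblast markers (716 to 2843 against 369 to 1254) and all 5 endothelial markers (347 to 555 against 312 to 354) were detected, none of them at 0. Of these, *Itgam*, *Adgre1*, *Dcn*, *Lum* and *Kdr* were lower in KL-/- muscle by the test used below. The 5 Schwann cell markers summed to 31.2 to 56.7 in WT and 63.1 to 81.4 in KL-/- muscle, with 3 of 5 called higher, and the 4 satellite cell markers to 37.9 to 49.5 and 43.9 to 50.2, with none called. Only 2 of 5 cycling cell markers, *Mki67* and *Top2a*, were in the table, at a sum of 1.84 to 11.2 and 0.414 to 5.73. The part of these shifts in the results below was not tested, and in whole muscle fewer cells of a type and less RNA per cell cannot be told apart. KL-/- replicate 3 has a different batch date from the other 7 libraries, which as 1 library of 1 genotype cannot be told apart from that mouse, so the called members are given with and without it.

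Among the members, *Ncl*, *Npm1*, *Nop56*, *Dkc1* and *Nop14* were higher and *Rrp12* was lower in KL-/- muscle at an adjusted p under 0.05 (edgeR quasi-likelihood test across all 12551 genes, Benjamini-Hochberg adjustment). The differences were modest, between −0.28 and 0.47 on the log2 scale, KL-/- over WT, over all 46 members. The 5 members called higher made up 10.9%, beside 7.35% of all genes tested. The 1 called lower made up 2.17%, beside 6.67%. At an unadjusted p under 0.05, 9 were higher, or 19.6% of members beside 15.8% of all genes, and 1 was lower, or 2.17% beside 16.4%. Without any overlap between the 4 WT and 4 KL-/- libraries, 8 members were higher (17.4%, beside 10.2% of all genes) and 1 was lower (2.17%, beside 9.47%). These separations were counted on scaled CPM only. The scaling factors themselves did not overlap, at 1.025 to 1.054 in WT and 0.9501 to 0.9796 in KL-/- libraries. The log2 fold change was positive in 32 members and negative in 14, with a median of 0.0625 beside −0.0159 for all genes. This median depended on the scaling: scaled by library totals alone it was −0.0552, beside −0.134 for all genes.

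**Figure D1:**
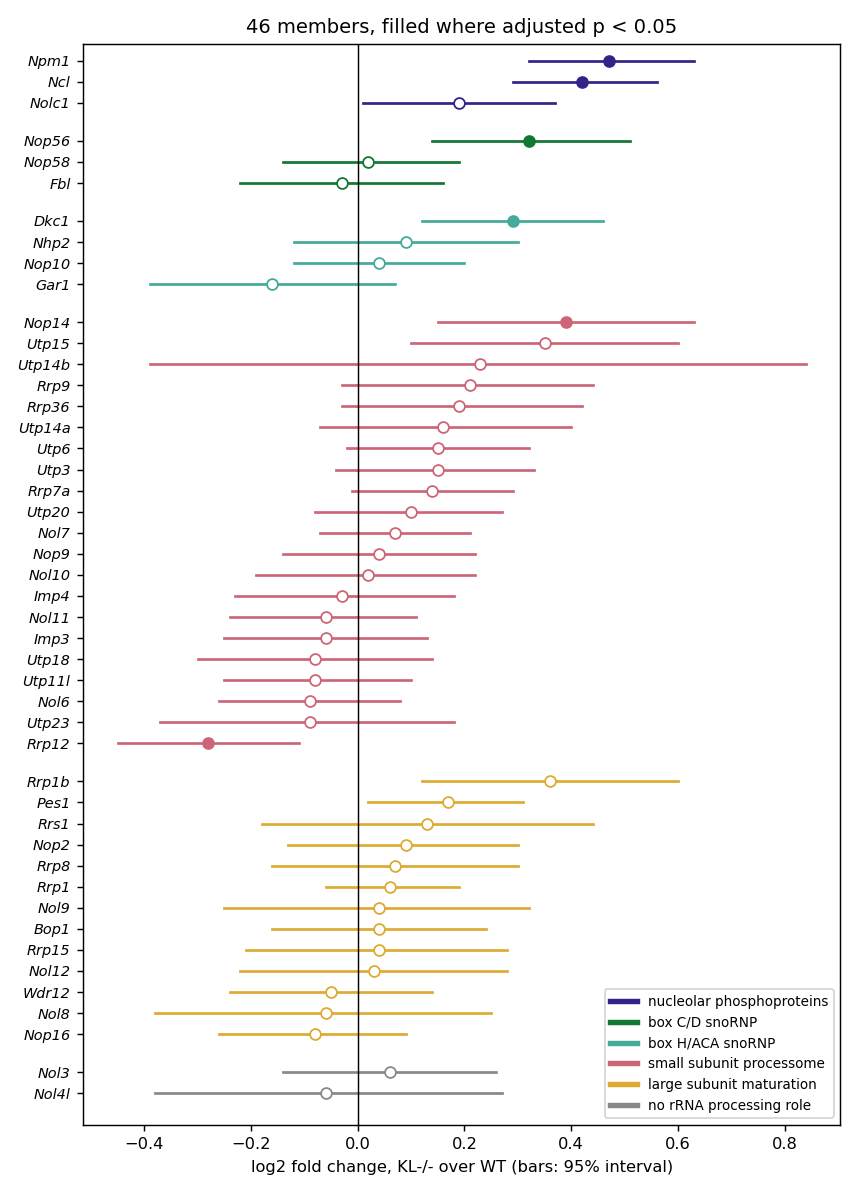
Log2 fold change of KL-/- over WT (horizontal axis) for each of the 46 members, grouped by role and sorted within it. Points are edgeR estimates with TMM factors, bars are 95% intervals over 4 mice per genotype, and filled points have an adjusted p under 0.05. The filled points of *Npm1*, *Ncl*, *Nop14*, *Nop56* and *Dkc1* lie to the right of 0 and *Rrp12* lies to the left, and most other intervals cross 0.

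*Npm1* and *Ncl*, among the nucleolar phosphoproteins, had the largest log2 fold changes of all members. *Npm1* on chr11:33152498-33163206 (mm10, minus strand) encodes nucleophosmin, a histone and ribosome assembly chaperone that organizes the outer, granular region of the nucleolus. Its level was 78.3, 78.7, 74.7 and 69.9 CPM in WT replicates 1 to 4, and 93.5, 106, 111 and 108 CPM in KL-/- replicates 1 to 4. Every KL-/- library lay above every WT library, and KL-/- replicate 1 was the nearest to them. The means were 75.4 ± 4.10 and 105 ± 7.71 CPM (SD, n = 4 each), a log2 fold change of 0.47 (SE 0.07, 95% interval 0.32 to 0.63, adjusted p = 0.0054 by edgeR).

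*Ncl* on chr1:86344719-86359455 (minus strand) encodes nucleolin, which binds nascent precursor rRNA and acts in its transcription and first cleavage. Its level was 159, 156, 149 and 168 CPM in the WT libraries, and 204, 209, 227 and 207 CPM in the KL-/- libraries. The groups were well apart, with the highest WT library, replicate 4, below the lowest KL-/- library, replicate 1. The means were 158 ± 7.89 and 212 ± 10.3 CPM, a log2 fold change of 0.42 (SE 0.06, 95% interval 0.29 to 0.56, adjusted p = 0.00473 by edgeR). *Nolc1*, for Nopp140, a chaperone of snoRNPs, had a log2 fold change of 0.19 (95% interval 0.01 to 0.37) and was not called (adjusted p = 0.139), with overlapping libraries at 31.1 to 34.3 and 33.4 to 41.6 CPM. It passed the threshold only when KL-/- replicate 2 was left out (adjusted p = 0.0448).

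*Ncl* and *Npm1* also took a larger part of what the members contributed to the libraries. *Ncl* made up 13.2% to 14.1% of the summed CPM of the 46 members in WT and 15.7% to 16.9% in KL-/- muscles. *Npm1* made up 5.87% to 6.83% and 7.20% to 8.50%. The summed CPM itself was 1199, 1152, 1097 and 1190 in WT and 1297, 1254, 1341 and 1264 in KL-/- muscles, without overlap. On library totals the sums were 1229, 1194, 1156 and 1253 in WT and 1271, 1192, 1282 and 1207 in KL-/- muscles and overlapped.

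**Figure D2:**
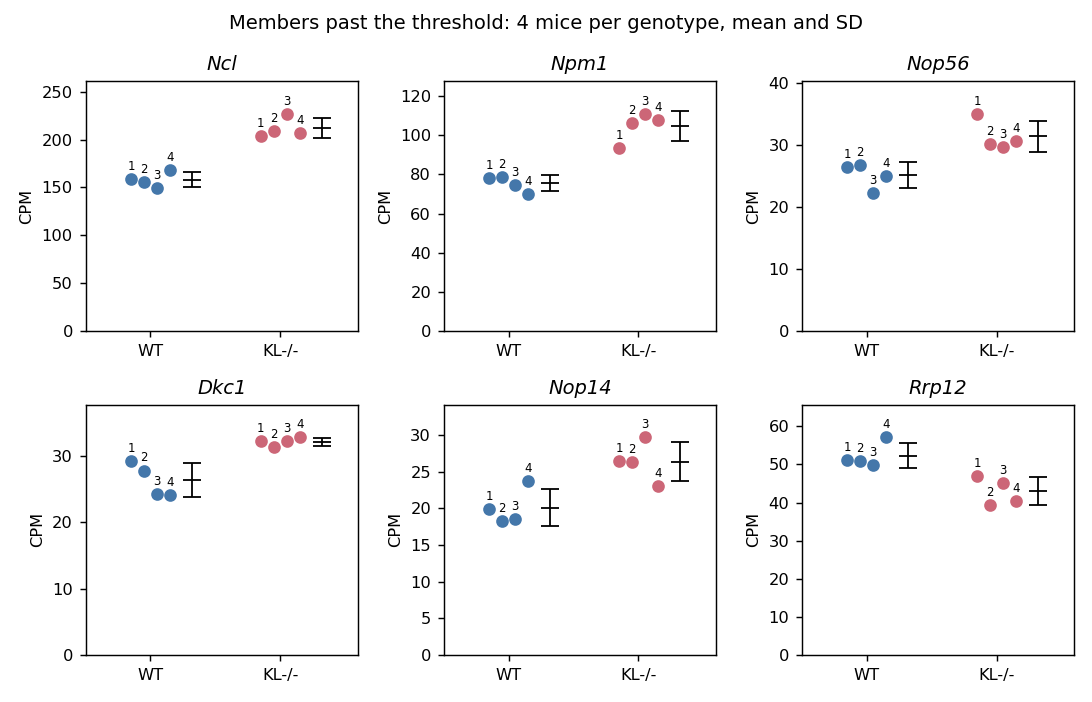
CPM (vertical axis, from 0) of the 6 members with an adjusted p under 0.05 in each library. Points are mice numbered by replicate, and the bar beside them is the mean with its SD, n = 4 per genotype. The genotypes do not overlap except in *Nop14*, where KL-/- replicate 4 at 23.1 lies under WT replicate 4 at 23.7.

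Both snoRNP classes showed a single called subunit beside others with small differences. *Nop56* (chr2:130274412-130279313, plus strand) encodes a core scaffold protein of box C/D snoRNPs. Its level was 26.5, 26.8, 22.3 and 25.1 CPM in WT and 35.1, 30.2, 29.7 and 30.7 CPM in KL-/- muscles. No libraries overlapped, and KL-/- replicate 1 stood above the other 3. The means were 25.2 ± 2.07 and 31.4 ± 2.47 CPM, a log2 fold change of 0.32 (SE 0.08, 95% interval 0.14 to 0.51, adjusted p = 0.0331). Its partners in the particle were not called. *Nop58*, the paralogous scaffold protein, measured 12.4 to 14.2 CPM in WT libraries and 12.9 to 13.8 CPM in KL-/- libraries, a log2 fold change of 0.02 (95% interval −0.14 to 0.19, adjusted p = 0.86). *Fbl* was at 11.2 to 12.2 and 10.1 to 12 CPM, a log2 fold change of −0.03 (−0.22 to 0.16, adjusted p = 0.846).

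In the box H/ACA class, *Dkc1* (chrX:75095854-75109776, plus strand) measured 29.2, 27.8, 24.3 and 24.1 CPM in WT libraries and 32.2, 31.3, 32.2 and 32.8 CPM in KL-/- libraries. The KL-/- libraries lay close together, all above WT replicate 1, the highest of the WT group. The means were 26.3 ± 2.55 and 32.2 ± 0.612 CPM, a log2 fold change of 0.29 (SE 0.08, 95% interval 0.12 to 0.46, adjusted p = 0.0363). The remaining subunits of the particle were not called. *Gar1*, needed for release of the modified RNA, was at 5.04 to 5.95 and 4.6 to 5.35 CPM, a log2 fold change of −0.16 (−0.39 to 0.07, adjusted p = 0.315). *Nhp2*, an RNA-binding subunit, had a log2 fold change of 0.09 (−0.12 to 0.30, adjusted p = 0.527) and *Nop10*, a small structural subunit, 0.04 (−0.12 to 0.20, adjusted p = 0.747).

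Whether subunits of a particle moved apart was tested on the log2 ratio of their counts within each library, where scaling factors cancel, for all 9 pairs within the 2 particles (two-sided exact permutation test over the 8 libraries). *Nop56* over *Fbl* was 1.14, 1.13, 0.99 and 1.16 in WT and 1.58, 1.58, 1.32 and 1.35 in KL-/- muscles, a difference of 0.35. The ratio of *Dkc1* to *Gar1* was 2.35, 2.46, 2.13 and 2.02 in WT and 2.81, 2.66, 2.59 and 2.69 in KL-/- muscles, a difference of 0.45. Both ratios separated the genotypes, as did those of *Nop56* to *Nop58*, *Dkc1* to *Nop10* and *Gar1* to *Nhp2*, with differences of 0.30, 0.25 and −0.25. Each of these 5 pairs reached p = 0.0286, the smallest an exact permutation test of 4 against 4 can give, and p = 0.0514 after adjustment over the 9 pairs. None of the 9 thus passed 0.05 after adjustment, which 5 pairs at this smallest p could not do whatever the size of their differences. The pairs share subunits, so they are not independent, and the tests were added after the calls were seen. The other 4 pairs overlapped, with differences of 0.06 for *Nop58* to *Fbl*, 0.20 for *Dkc1* to *Nhp2*, −0.19 for *Gar1* to *Nop10* and 0.06 for *Nhp2* to *Nop10*.

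Some of these genes carry small nucleolar RNAs (snoRNAs) in their introns, the guides that snoRNPs use. In the GENCODE M21 annotation of GRCm38 (mm10), 13 snoRNAs lie inside 4 members, 5 in *Nop56*, 4 in *Nop58*, 3 in *Ncl* and 1 in *Dkc1*, and none overlaps a counted exon. Among these 4 host genes are *Ncl*, *Nop56* and *Dkc1*, called higher, and *Nop58*, not called. Of the 42 other members 2 were called higher and 1 lower, beside 7.35% higher and 6.67% lower of all genes. *Nop56* and *Dkc1* kept their call in only 1 and 2 of the 8 fits that left out 1 library. No difference between hosts and other members was tested. The snoRNAs themselves were not measured by these counts. A search for these exact boxes near the ends of each snoRNA marked 5 of the 13 as C/D and 2 as H/ACA. It found neither in 6, among them the 1 in *Dkc1*. Boxes that differ by a base or lie elsewhere would be missed, so these 6 are not shown to lack them. One box C/D snoRNA of each C/D host and the H/ACA snoRNA of *Ncl* are shown because their boxes are the elements that the proteins above assemble on, with capitals marking box C (TGATGA) and box D (CTGA), or the ACA near the 3′ end.
Snora75, in *Ncl*, chr1:86351169-86351301, minus strand: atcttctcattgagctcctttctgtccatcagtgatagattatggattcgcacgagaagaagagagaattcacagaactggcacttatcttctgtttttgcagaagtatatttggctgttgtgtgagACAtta
Snord82, in *Ncl*, chr1:86356261-86356330, minus strand: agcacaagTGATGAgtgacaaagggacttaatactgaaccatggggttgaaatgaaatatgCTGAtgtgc
Snord110, in *Nop56*, chr2:130275506-130275573, plus strand: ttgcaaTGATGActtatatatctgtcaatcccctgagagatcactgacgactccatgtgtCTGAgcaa
Snord11, in *Nop58*, chr1:59704790-59704873, plus strand: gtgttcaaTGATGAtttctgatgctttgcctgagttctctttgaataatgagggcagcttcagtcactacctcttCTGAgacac

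The small subunit processome, the large particle that cleaves the precursor on the way to the small subunit rRNA, held 1 member called higher, 1 called lower and 19 not called among 21. Each direction was thus 4.76% of the class, beside 7.35% higher and 6.67% lower over all genes, and the median log2 fold change was 0.0715, or −0.0465 on library totals. *Nop14* (chr5:34638536-34660148, minus strand), a processome protein needed for early cleavage, had 19.9, 18.3, 18.5 and 23.7 CPM across the WT and 26.5, 26.3, 29.7 and 23.1 across the KL-/- libraries. The groups overlapped through WT replicate 4 and KL-/- replicate 4. The means were 20.1 ± 2.51 and 26.4 ± 2.7 CPM, a log2 fold change of 0.39 (SE 0.11, 95% interval 0.15 to 0.63, adjusted p = 0.0389).

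*Rrp12* (chr19:41862851-41896153, minus strand), a HEAT-repeat protein of pre-ribosomes that is needed for their export from the nucleus, was the only member called lower. Its level was 51.1, 51.0, 49.9 and 57.1 CPM in WT and 47.0, 39.4, 45.1 and 40.4 CPM in KL-/- muscles. The genotypes did not overlap, with WT replicate 4 standing above the other WT libraries. The means were 52.3 ± 3.27 and 43.0 ± 3.66 CPM, a log2 fold change of −0.28 (SE 0.08, 95% interval −0.45 to −0.11, adjusted p = 0.039).

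*Utp15*, of the subcomplex that links precursor transcription to processing, had a log2 fold change of 0.35 (95% interval 0.10 to 0.60) that did not pass (adjusted p = 0.068), although its libraries at 7.27, 7.4, 7.89 and 8.25 CPM in WT lay below those at 11.4, 10.1, 9.49 and 8.26 CPM in KL-/- muscles. The closest libraries, WT replicate 4 and KL-/- replicate 4, were nearly equal. *Rrp7a* had a log2 fold change of 0.14 (adjusted p = 0.193). Its libraries, at 26.1 to 29.2 and 29.2 to 33 CPM, barely separated, the nearest being equal to the digits shown. Both *Imp3* and *Imp4*, which help a guide snoRNA pair with the precursor, had small differences of −0.06 (−0.25 to 0.13, adjusted p = 0.673) and −0.03 (−0.23 to 0.18, adjusted p = 0.859). Among the other members of this class, the log2 fold changes ran from −0.09 in *Utp23* and *Nol6* (adjusted p = 0.63 and 0.44) to 0.23 in *Utp14b* (adjusted p = 0.602). *Utp14b* is a retrogene copy of *Utp14a* best known from the germ line. It was the lowest of all members at 0.825 to 1.02 CPM in WT and 0.767 to 1.62 CPM in KL-/- muscles, with counts down to 18 in a library, and it lies within *Acsl3* on the same strand, whose reads could be shared with it.

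Of 13 members acting in large subunit maturation, edgeR called 0. At an unadjusted p under 0.05, 2 of the 13 were higher, beside 15.8% of all genes. DESeq2 called *Rrp1b* alone (adjusted p = 0.0277), while over all genes it called 10.5% higher against 7.35% by edgeR. The 2 with an unadjusted p under 0.05 were *Rrp1b* and *Pes1*. They were also the 2 of the class without overlap between genotypes, beside 10.2% of all genes higher without overlap. *Rrp1b*, a nucleolar protein that recruits a protein phosphatase, measured 8.37, 7.12, 6.82 and 8.89 CPM in WT libraries and 10.8, 9.97, 9.78 and 9.50 CPM in KL-/- libraries. All KL-/- libraries lay above WT replicate 4, yet the log2 fold change of 0.36 (SE 0.11, 95% interval 0.12 to 0.60) did not pass the threshold (adjusted p = 0.054).

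*Pes1*, *Bop1* and *Wdr12* encode the 3 subunits of the PeBoW complex, which is needed to process the large subunit rRNAs. *Pes1* measured 38.0, 37.8, 35.6 and 35.8 CPM in WT libraries and 38.9, 40.1, 45.4 and 40.6 CPM in KL-/- libraries, with a log2 fold change of 0.17 (95% interval 0.02 to 0.31, adjusted p = 0.118). *Bop1* had 0.04 (−0.16 to 0.24, adjusted p = 0.772) and *Wdr12* −0.05 (−0.24 to 0.14, adjusted p = 0.735), both with overlapping libraries. *Rrs1*, which helps bring a separate small rRNA into the large subunit precursor, had 0.13 with a wide interval of −0.18 to 0.44 (adjusted p = 0.551), and its KL-/- replicates 1 and 2 at 21.7 and 22.7 CPM lay above replicates 3 and 4, both at 15.7 CPM. *Nop16* was at −0.08 (−0.26 to 0.09, adjusted p = 0.476).

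The pair without an rRNA processing role did not differ past the threshold. *Nol3* measured 56.7 to 64.6 CPM in WT libraries and 54.5 to 71.7 CPM in KL-/- libraries, a log2 fold change of 0.06 (−0.14 to 0.26, adjusted p = 0.679). *Nol4l* was at 2.19 to 2.78 and 2.19 to 2.62 CPM, a log2 fold change of −0.06 (−0.38 to 0.27, adjusted p = 0.817). Across the 40 members not called, the 95% interval lay within 0.5 of 0 on the log2 scale for 37, so that differences beyond that size fell outside their intervals. This bound is above every called difference, the largest being 0.47 in *Npm1*. Some intervals of uncalled members thus still held differences of the size called elsewhere, as in *Nolc1*, whose interval reached 0.37.

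Levels were compared between members per kilobase of counted exon (CPM per kb, averaged over all 8 libraries). They ran from 0.246 for *Utp14b* to 52.4 for *Npm1*. After *Npm1* came *Nop10* at 43.0, *Rrp1*, a large subunit factor, at 29.6, *Nol7*, a processome protein, at 29.3 and *Imp3* at 24.6 CPM per kb. The order depends on the annotated exon length, which can differ from that of the transcripts expressed in muscle. *Ncl*, the highest member in CPM, stood at 22.4 CPM per kb over 8257 bases. Above *Utp14b*, the low end held *Nol4l* at 0.371, *Utp23* at 1.66, *Rrp1b* at 1.75 and *Utp15* at 2.15 CPM per kb. The neighbors *Rrp1* and *Nol7*, and *Utp23* and *Rrp1b*, lay closer to each other than their libraries varied. In KL-/- muscle *Npm1* stood at 60.9 against 43.6 for *Nop10*, whereas in WT muscle they were close, at 43.9 and 42.4 CPM per kb. The spread between mice was small for most members, with a median coefficient of variation of 6.39% in WT and 8.10% in KL-/- muscles.

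**Figure D3:**
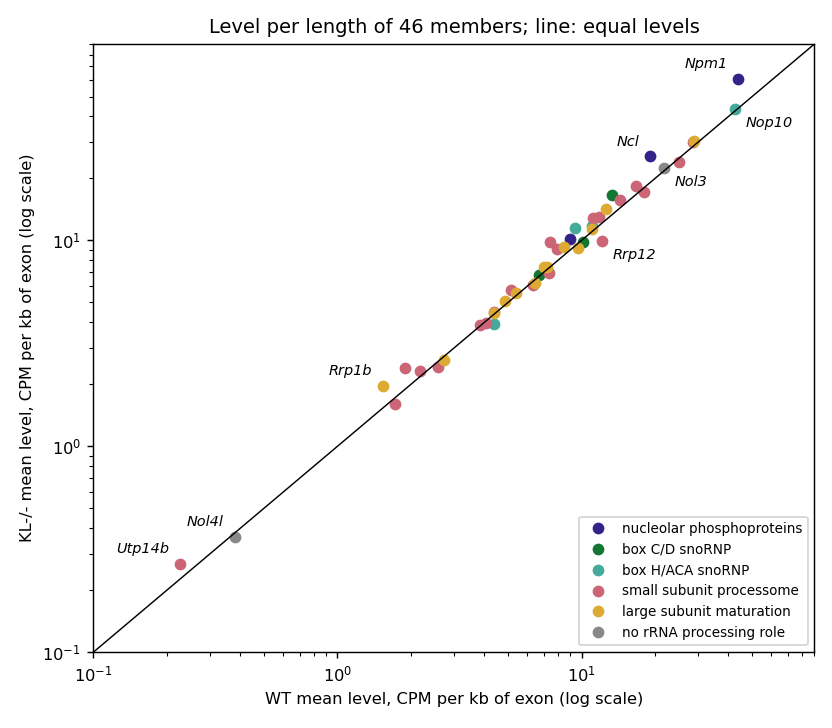
Mean level of each of the 46 members in WT (horizontal axis) and KL-/- muscle (vertical axis), in CPM per kb of annotated exon on log scales, n = 4 per genotype, with the line marking equal levels. The points run from 0.226 to 43.9 CPM per kb in WT and from 0.267 to 60.9 in KL-/- muscle, and *Npm1* and *Ncl* lie above the line while *Rrp12* lies below it.

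The member medians differed among the libraries of a genotype as well. Relative to the mean of the WT libraries, the median deviation of log2 CPM (with a prior count of 2) over the 46 members was 0.0521, −0.0182, −0.0675 and 0.0515 in WT replicates 1 to 4, and 0.0992, 0.00842, 0.0904 and 0.00674 in KL-/- replicates 1 to 4. KL-/- replicates 2 and 4 fell inside the WT range and replicates 1 and 3 above it. For the 3 nucleolar phosphoproteins, by contrast, the medians were −0.0744 to 0.0565 in WT and 0.347 to 0.524 in KL-/- muscles.

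The calls differed in how much they rested on single libraries and on the scaling. *Ncl* and *Npm1* were called in all 8 fits that each left out 1 library, with adjusted p of 0.00305 to 0.0186 and 0.00505 to 0.0195. *Nop14* was called in 3 of these 8, *Dkc1* in 2, and *Nop56* and *Rrp12* in 1 each, with the highest adjusted p at 0.104, 0.0962, 0.0819 and 0.107. Their log2 fold changes over these 8 fits were 0.33 to 0.48 for *Nop14*, 0.25 to 0.34 for *Dkc1*, 0.27 to 0.35 for *Nop56* and −0.32 to −0.23 for *Rrp12*, while calls over all genes fell to as few as 404 higher without WT replicate 2. Without KL-/- replicate 3, the library of the other date, *Ncl* (0.39, adjusted p = 0.0157) and *Npm1* (0.44, adjusted p = 0.0193) were called. *Nop56* (0.35, adjusted p = 0.0583), *Dkc1* (0.29, 0.0869), *Nop14* (0.33, 0.104) and *Rrp12* (−0.31, 0.0695) were not.

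**Figure D4:**
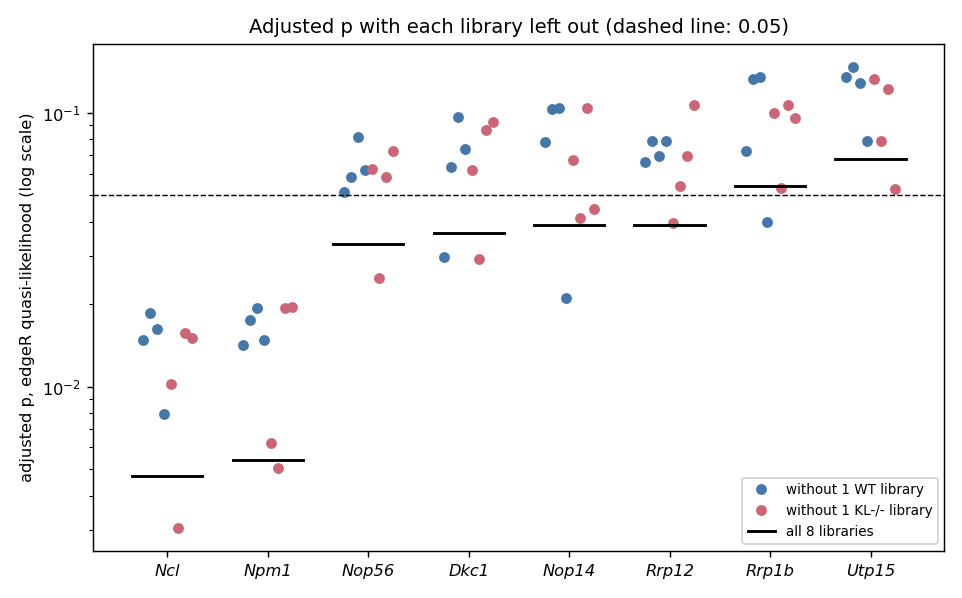
Adjusted p from edgeR's quasi-likelihood test (vertical axis, log scale) for the 6 called members and the 2 nearest to the threshold. Black lines are all 8 libraries, points the fits without 1 WT or 1 KL-/- library, and the dashed line 0.05. Every point of *Ncl* and *Npm1* lies under the dashed line, and the other 4 called members have points on both sides of it.

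TMM factors were 1.025 to 1.054 in WT and 0.9501 to 0.9796 in KL-/- libraries, without overlap, so the scaling shifts every member by about the same amount. With library totals instead, *Ncl* at 0.30 (adjusted p = 0.0107), *Npm1* at 0.35 (adjusted p = 0.00803) and *Rrp12* at −0.40 (adjusted p = 0.0133) were called. *Nop56* at 0.21 (adjusted p = 0.107), *Dkc1* at 0.17 (0.111) and *Nop14* at 0.27 (0.0971) were not, and 15 members with small positive values turned negative. Over all genes, the calls were split into 922 higher and 837 lower with TMM factors and 492 higher and 2127 lower with library totals. With the replicate number as a block, *Ncl* (adjusted p = 0.0323) and *Npm1* (adjusted p = 0.0322) alone of the members were called.

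**Figure D5:**
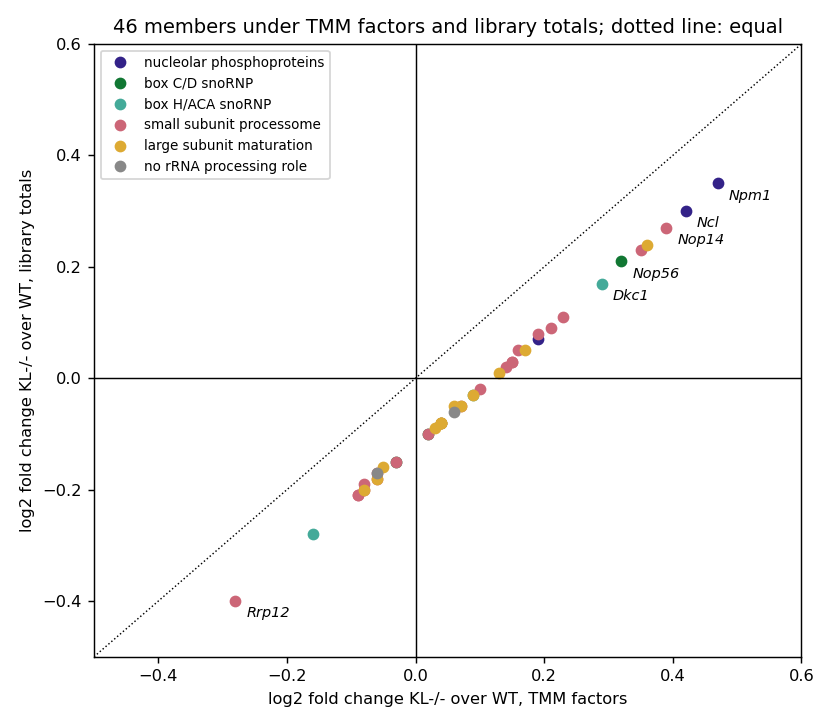
Log2 fold change of KL-/- over WT for the 46 members with TMM factors (horizontal axis) and with library totals (vertical axis), with the dotted line marking equal values. All points lie below the line by a similar distance, and the 15 in the lower right quadrant are positive with TMM factors and negative with library totals.

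The members were set beside 127 other genes of ribosome assembly and of the MYC network, none of them a member. Of these, 11 were called higher (8.66%, beside 7.35% of all genes) and 1 lower (0.787%, beside 6.67%), with a median log2 fold change of 0.0689, or −0.0478 on library totals. Among 25 other processome proteins, edgeR called 1, *Wdr43*, and DESeq2 called 2 higher, beside 7.35% and 10.5% of all genes. *Wdr43* had means of 31.3 ± 0.912 CPM (WT) and 41.3 ± 2.32 CPM (KL-/-), a log2 fold change of 0.40 (adjusted p = 0.00598). It encodes a partner of Utp15 in the subcomplex described above. Among 41 other large subunit assembly and export proteins, 4 were called higher by edgeR and 8 by DESeq2, again beside 7.35% and 10.5% of all genes. The 4 were *Nsa2* (0.33, adjusted p = 0.0117), *Gnl2* (0.28, 0.0215), *Noc2l* (0.24, 0.0369) and *Las1l*. *Las1l*, the endonuclease that cuts the internal spacer between the large subunit rRNAs, had 0.29 (adjusted p = 0.039). The median of this list was 0.123, or 0.00468 on library totals. At an unadjusted p under 0.05, 12 of its genes were higher (29.3%, beside 15.8% of all genes) and 1 was lower. Of the 25 other processome proteins 3 were higher at that cutoff and 0 lower. Over all 127 related genes 30 were higher (23.6%) and 4 lower.

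Late small subunit maturation, with 12 genes, held *Riok3*, an atypical kinase (0.55, adjusted p = 0.0099), and *Ltv1*, an assembly factor (0.26, adjusted p = 0.0331), both higher. Of 16 genes of the RNA polymerase I machinery, *Taf1d*, a subunit of its promoter selectivity factor, was higher (0.37, adjusted p = 0.0447). Of 14 RNA exosome genes, edgeR called *Dis3*, a catalytic subunit, higher (0.33, adjusted p = 0.0282), and DESeq2 called 2 higher. Over all genes, edgeR called 7.35% higher and DESeq2 10.5%. At an unadjusted p under 0.05, 2 of the late small subunit, 2 of the polymerase and 5 of the exosome genes were higher. At that cutoff 1 polymerase gene was lower, where 15.8% of all genes were higher and 16.4% lower. The median log2 fold change of the exosome genes was 0.00673. None of 10 measured RNase MRP and RNase P proteins was called by edgeR, with 1 higher and 1 lower at an unadjusted p under 0.05, and DESeq2 called 0. *Rpp25* and *Rmrp* of that list are not in the table. Of the 9 assembly genes named here, *Wdr43*, *Nsa2* and *Riok3* were called in all 8 fits that left out 1 library, *Gnl2* in 4, *Dis3* in 3, *Noc2l*, *Las1l* and *Ltv1* in 2 each and *Taf1d* in 1.

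Of 9 measured genes of the MYC network, edgeR called 2 higher and 1 lower, and DESeq2 4 and 1. The shares over all genes were 7.35% and 6.67% by edgeR and 10.5% and 9.11% by DESeq2. *Myc*, the transcription factor that drives ribosome assembly genes, measured 2.65, 2.68, 3.13 and 2.22 CPM in WT libraries and 4.57, 11.5, 3.81 and 5.13 CPM in KL-/- libraries. KL-/- replicate 2 was by far the highest, and the groups did not overlap. The log2 fold change was 1.21 (SE 0.34, adjusted p = 0.0435), and 0.77 (adjusted p = 0.0141) without that library. *Mycn*, its paralog, was lower, 1.62 ± 0.656 against 0.563 ± 0.218 CPM (−1.56, adjusted p = 0.0284), and *Mxi1*, which competes with MYC for its partner MAX, was higher, 59.5 ± 5.92 against 92.8 ± 13.6 CPM (0.64, adjusted p = 0.00863). *Myc* was called in 3 and *Mycn* in 2 of the 8 fits that left out 1 library, and *Mxi1* in all 8.

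The 250 bases before the start of each gene were searched on both strands for motifs known from promoters of such genes, in RefSeq sequences of GRCm38.p6 that held 36 of the 46 members. CACGTG, the E-box that MYC binds, was in 6 members (16.7%, beside 10% of 9564 genes of the table), *Rrp7a*, *Nop2*, *Utp18*, *Utp14b*, *Nol11* and *Imp4*, none of them called. CCGGAAG, an ETS motif, was in 9 (25.0%, beside 15.4%). AAGATGG, part of the YY1 motif, was in 1 (2.78%, beside 5.11%), and CCAAT in 12 (33.3%, beside 40%). Of the 4 called members with a sequence, *Ncl*, *Dkc1* and *Nop14* held none of the 4 motifs in this window and *Nop56* held CCAAT. *Npm1* and *Rrp12* were among the 10 without an entry.

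Leaving aside the snoRNAs described above, 20 of the 46 members overlap another annotated gene, 2 of them on the same strand. *Nop56* overlaps *Idh3b*, *Dkc1* overlaps *Mpp1* and *Nop14* overlaps *Gm15522* on the opposite strand, and since the sources used here do not say whether counting was by strand, such partners could share reads. Apart from the classes left aside, which include the snoRNAs of *Ncl*, none of *Ncl*, *Npm1* and *Rrp12* overlaps another gene of GENCODE M21.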

How the data were processed

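TA muscle RNA of 8 mice, 4 per genotype, was sequenced. The sample records name total RNA libraries, whereas the study's methods name mRNA. After FastQC, the authors mapped reads to the mm10 genome (STAR), dropped poorly mapped reads and quantified genes with featureCounts. The deposited table holds these raw counts, not normalized, and no column of it belonged to another series. The annotation version and strand setting are not given in the sources used here. The table was limited to expressed genes. The Klotho gene was not analysed here, so genotypes rest on the labels. Nothing says whether the 4 mice of a genotype were from separate litters, so p-values measure the spread between these mice.

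Counts were fitted in R 4.3.3 with edgeR 4.0.16 (filterByExpr, TMM factors, genotype only, quasi-likelihood test, Benjamini-Hochberg adjustment over all 12551 genes). The confidence level was 95%. CPM use TMM-scaled library sizes and means are given ± SD. The fit was tested on simulated data with changes larger than that of any member, so the test does not bear on calls at the sizes reported here. Alternatives were RLE factors, library totals, no filter, a minimum of 10 counts in every library, DESeq2 1.42.0, a likelihood ratio test, limma-voom (limma 3.58.1), the replicate number as a block and each library left out. The edgeR 3 form of the quasi-likelihood test, the ratios between subunits and their exact permutation tests were added after seeing the data.

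The members and lists were chosen with earlier results of these data known, so lists are described by counts and medians, with no test over a list. Named with values are all called members, those chosen by their own symbol, the 5 highest and 5 lowest per length and by log2 fold change, the members without an rRNA processing role, and up to 3 called genes of each related list. *Nolc1*, *Rrp7a*, *Las1l* and the motif holders were named after their values were seen. Positions and exon lengths are those of the deposited table, and overlaps and snoRNAs are from GENCODE M21, which holds *Utp11l* as *Utp11*.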

Additional observations from a re-analysis of the deposited data

Results flagged for a closer look

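In each genotype of 4 libraries, the gap between the highest or lowest library and its nearest neighbor was divided by the range of the group for every member, and 4 of 92 such groups exceeded Dixon's 95% critical value, where chance gives about 1 in 20. *Fbl* in KL-/- muscle had its lowest value in replicate 2, 10.1 CPM against 11.7 to 12 in the others, a ratio of 0.839. *Rrp12* in WT muscle was highest in replicate 4, at 57.1 CPM against 49.9 to 51.1 (0.837). *Rrp36* in WT muscle was also highest in replicate 4, at 10.4 CPM against 9.07 to 9.27 (0.849). *Nol3* in WT muscle was lowest in replicate 3, at 56.7 CPM against 63.7 to 64.6 (0.886). Without WT replicate 4, *Rrp12* had a log2 fold change of −0.24 (adjusted p = 0.0792 by edgeR) and *Rrp36* was not called with or without that library.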

How the results depend on the processing

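Of the 46 members, the 5 higher and 1 lower call became 2 and 1 with library totals, 2 and 0 with a replicate block, and 7 and 1 with DESeq2. Leaving out each library in turn gave 2 to 6 higher and 0 to 1 lower, with 2 higher without WT replicate 2 or 3 or KL-/- replicate 1 or 3, 3 without WT replicate 1 or KL-/- replicate 4, and 0 lower in each case except without KL-/- replicate 1. RLE factors added *Rrp1b* (0.37, adjusted p = 0.0481), and DESeq2 added *Rrp1b* (0.37) and *Utp15* (0.35). The replicate block left *Nop56*, *Dkc1*, *Nop14* and *Rrp12* uncalled (adjusted p = 0.0614, 0.0899, 0.105 and 0.0978). Same-numbered libraries deviated with correlations of −0.146, 0.181, −0.368 and 0.017. The labels state no link between them beyond the number, and whether they share a litter or handling was not tested. Over all genes the block gave 348 higher and 323 lower calls, DESeq2 1313 and 1143, and leaving out a library 404 to 1521 and 343 to 1234.

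The 11 higher related genes became 5 with library totals, 3 with the block and 19 with DESeq2, and 4 to 20 with a library left out; the 1 lower became 11 with library totals and 0 to 2 with a library left out. The highest counts came without KL-/- replicate 2. The member median of 0.0625 became −0.0552 with library totals and 0.0366 to 0.0963 with a library left out. With library totals, *Nop58* and *Nol10* turned to −0.10, *Nol12* to −0.09, *Nop10*, *Bop1*, *Nol9*, *Rrp15* and *Nop9* to −0.08, *Nol3* to −0.06, *Rrp1*, *Rrp8* and *Nol7* to −0.05, *Nhp2* and *Nop2* to −0.03 and *Utp20* to −0.02. Leaving out 1 library gave signs on both sides of 0 for 15 uncalled members: *Fbl* −0.05 to 0.03, *Nop58* −0.004 to 0.06, *Nop10* −0.006 to 0.07, *Bop1* −0.005 to 0.12, *Nol12* −0.05 to 0.12, *Nol8* −0.15 to 0.07, *Nol9* −0.09 to 0.12, *Rrp15* −0.02 to 0.09, *Rrp8* −0.02 to 0.11, *Wdr12* −0.08 to 0.03, *Imp4* −0.07 to 0.03, *Nol10* −0.05 to 0.06, *Nol11* −0.09 to 0.0005, *Utp14b* −0.05 to 0.38 and *Nol4l* −0.11 to 0.008. It did so too for the ratios *Nop58* to *Fbl* (−0.01 to 0.11) and *Nhp2* to *Nop10* (−0.01 to 0.09). The ratio differences of the 5 separated pairs ranged from 0.20 to 0.52 in size over the libraries left out. The causes were not tested. With 4 mice a group, whether a difference passed depended on its spread as well as its size, since *Rrp1b* (0.36) was not called and *Dkc1* (0.29) was. The strand setting of the counting is unknown, so reads of overlapping genes may be shared.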
